A study of Amia calva with 36 samples.

Results

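The dorsal mesoderm of the bowfin (Amia calva) foregut was compared between stage 25, when the gas bladder buds, and stage 24, just before it. The 3 stage 25 and 3 stage 24 libraries were chosen by their labels and are 6 of the 36 libraries of the study. All came from wild-collected eggs reared at 12.8 °C, staged after Ballard and cut into transverse sections of 15 µm, with no genotype or treatment named. The dorsal and ventral parts of the foregut endoderm and mesoderm were cut from such sections with a laser. The RNA was amplified, and cDNA libraries were sequenced. Whether libraries of different regions share sections or embryos is not given in the labels.

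The gas bladder of ray-finned fishes is an air-filled organ that in the bowfin opens into the dorsal foregut and is used for breathing air, whereas lungs bud from the ventral foregut. Such buds consist of an endodermal epithelium, which lines the organ, and the surrounding mesoderm, which forms its connective tissue, smooth muscle and vessels and exchanges signals with the epithelium as the bud grows. The stage 25 against 24 step asks which genes differ in the mesoderm on the side where the bowfin bud appears.

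The stage 24 libraries held 1508115, 746538 and 847631 reads assigned to genes and the stage 25 libraries 1587300, 1307105 and 1207210. Over all 36 libraries the range was 3040 to 1998280, and the library of 3040 reads is not a dorsal mesoderm library and entered only the fits of 24 and of all 36 libraries given as alternatives. Library numbers in the labels fall in separate ranges for the stages (14, 18 and 22 at stage 24, 26, 31 and 35 at stage 25). The labels do not say what the numbers stand for, and stage and anything they mark cannot be told apart. Which embryos a library came from is not given in the labels, and p-values measure only the spread between libraries, which may be technical. In the main limma test that spread is the one usual for genes of like abundance and not the gene's own. Levels are given in CPM, the reads of a gene scaled to the total assigned to genes, and are compared between stages for a gene and not between genes. The table names genes by bowfin identifiers and, for 11428 of 21948, by the identifier of the spotted gar ortholog. The files do not pair these with gene names, so no gene function or pathway is described.

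The labelled layer was checked with genes that differed between endoderm and mesoderm in the 12 stage 27 libraries, none of which is compared here (limma adjusted p under 0.05, mean of at least 10 CPM in the higher layer). There were 855 mesoderm-higher and 491 endoderm-higher genes. In the stage 24 dorsal mesoderm libraries 8.21%, 7.13% and 11.0% of reads fell in mesoderm-higher genes, and 12.3%, 9.76% and 8.85% did so in the stage 25 libraries. The stages overlapped, at 8.77% ± 1.98 and 10.3% ± 1.81 (SD, n = 3 each). In dorsal endoderm the same genes took 3.91% ± 1.46 and 4.38% ± 1.12 of reads at stages 24 and 25 (SD, n = 3 each), and every dorsal mesoderm library lay above every dorsal endoderm library. Stage 27 dorsal mesoderm stood at 19.1% ± 0.684 (SD, n = 3), but the list was chosen on those libraries.

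The endoderm-higher genes took 4.72%, 2.91% and 3.56% of reads in stage 24 dorsal mesoderm and 2.28%, 3.05% and 3.49% at stage 25. The ranges overlapped, and both lay below every dorsal endoderm library, with means of 7.36% ± 1.67 and 7.07% ± 1.47 at stages 24 and 25 (SD, n = 3 each). In ventral mesoderm this share was 4.44% to 5.51% at stage 24 and 3.01% to 3.69% at stage 25, with no overlap. Of the endoderm-higher genes, 128 had a read in all 3 stage 24 dorsal mesoderm libraries and 59 in all 3 of stage 25. No read was found for 136 of them at stage 24 and for 234 at stage 25. Of the mesoderm-higher genes, 232 were read in all 3 libraries at stage 24 and 188 at stage 25, and 221 and 260 had no read. These counts were taken at full depth, which differs between libraries. Over all genes at equal depth, 2467 were read in all 3 libraries at stage 24 and 1573 at stage 25. A read in at least 1 library was found for 9459 and 7414, so fewer genes were read at stage 25 over the table too. The part that endoderm RNA in the cut tissue has in the stage comparison was not tested.

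**Figure D1:**
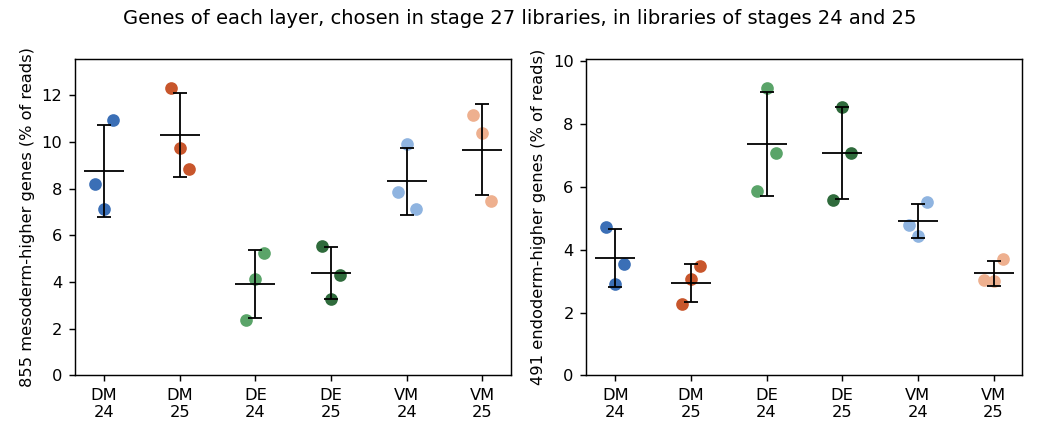
Share of reads (%) in the mesoderm-higher genes (left) and the endoderm-higher genes (right) in dorsal mesoderm (DM), dorsal endoderm (DE) and ventral mesoderm (VM) at stages 24 and 25. Points are libraries, and horizontal marks with bars are means ± SD of 3 libraries. The dorsal mesoderm and dorsal endoderm libraries do not overlap in either share, while the dorsal mesoderm libraries of the 2 stages overlap in both.

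The stage 25 dorsal mesoderm libraries read fewer genes on average, with overlap. At an equal depth of 746538 reads, 5984, 7283 and 4131 genes had a read in the stage 24 libraries and 3935, 5146 and 3608 in the stage 25 libraries. The third stage 24 library lay within the stage 25 range and the other 2 lay above it. The means were 5799 ± 1584 and 4230 ± 810 (SD, n = 3 each), a ratio of 0.729, which did not pass a two-sided exact permutation test (p = 0.2, where 0.1 is the smallest p that 3 against 3 libraries allow). Fewer cells cut and less RNA per cell cannot be told apart in such libraries.

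The 10 most abundant genes of each library, whichever they were, took 23.45%, 32.8% and 25.5% of reads at stage 24. They took 20.4%, 24.0% and 27.1% at stage 25, and the stages overlapped (two-sided exact permutation p = 0.5, n = 3 each). A large part of the table rested on single libraries. Of 6343 genes with a mean of at least 10 CPM over the 6 libraries, 1449 (22.8%) had at least 90% of their summed CPM in 1 library. These genes numbered 308, 241 and 220 for the stage 24 libraries and 244, 239 and 197 for those of stage 25. They took 7.97%, 8.00% and 8.02% of the reads at stage 24 and 12.1%, 7.33% and 10.0% at stage 25.

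**Figure D2:**
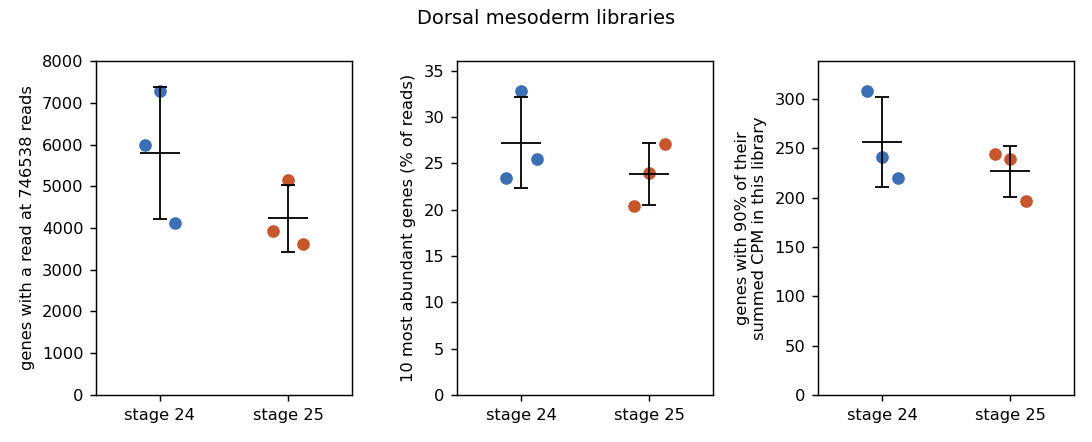
Genes read at equal depth, share of reads in the 10 most abundant genes of each library (%), and number of genes with at least 90% of their summed CPM in that library, for the 6 dorsal mesoderm libraries. Points are libraries, and marks with bars are means ± SD of 3. Genes read range from 4131 to 7283 at stage 24 and from 3608 to 5146 at stage 25, so that the stages overlap.

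The likeness of libraries within a stage overlapped that between stages. Over 10850 genes, Pearson's r of the log2 CPM values was 0.38 to 0.435 within stage 24, 0.363 to 0.403 within stage 25 and 0.342 to 0.453 between the stages. These values are descriptions across genes, which are not independent replicates, and the pairs share libraries. At equal depth, 10678 genes had a read in at least 1 of the 6 libraries, and 3245 of them (30.4%) in only 1. All 3 stage 24 libraries read 2467 genes and all 3 stage 25 libraries 1573, and 1082 genes were in both lists, which is 43.9% of the first and 68.8% of the second. Of these 1082, 631 carried a gar identifier and 1064 were also read in all 3 stage 27 dorsal mesoderm libraries.

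**Figure D3:**
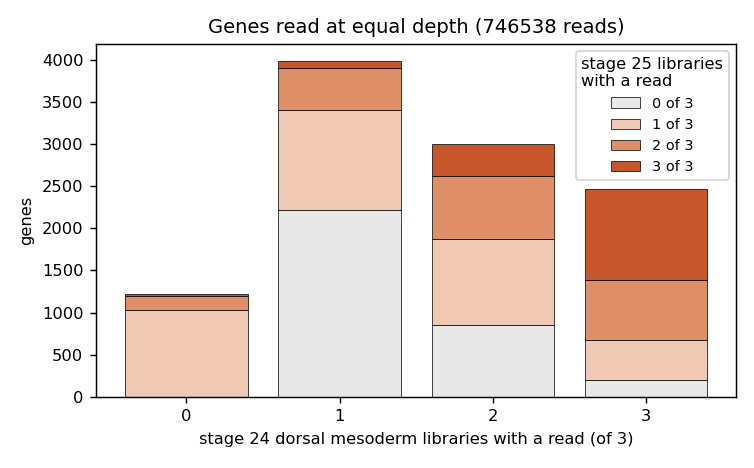
Number of genes with a read at equal depth (746538 reads), by how many of the 3 stage 24 libraries (horizontal axis) and of the 3 stage 25 libraries (shades) read them. Genes read in none of the 6 are left out, 2213 genes were read in 1 stage 24 library alone and 1032 in 1 stage 25 library alone, while 1082 genes were read in all 6.

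Without thinning, 1160 genes were read in all 6 libraries, 686 of them with a gar identifier. They held 61.1%, 63.0% and 66.3% of the reads at stage 24 and 60.9%, 62.9% and 67.1% at stage 25. The set was chosen for being read in all 6 of these libraries, so the like shares are no test of likeness between the stages. Within this set the median log2 difference, stage 25 minus stage 24, was -0.18, with quartiles of -1.16 and 0.90. In 61 of the 1160 genes every stage 25 library lay above every stage 24 library, and in 80 it lay below. These are 5.26% and 6.9% of the set, beside 1.89% and 6.55% of all 7446 genes tested. A gene can lie above only if every stage 25 library read it, and below only if every stage 24 library did. Choosing genes read in all 6 libraries acts on these shares by itself, so no difference from all genes tested is taken from them.

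Some genes were read at 1 stage only. At an equal depth of 512370 reads, 197 genes were read in all 3 stage 24 libraries and in none of stage 25, and 14 the other way round, of 10470 genes read in any of the 6 libraries. These are 1.88% and 0.134%. In ventral mesoderm the counts were 81 and 37 of 9416, or 0.86% and 0.393%. The rule depends on each library: the stage 24 count was 433, 317 and 686 without stage 24 replicate 1, 2 or 3, and 306 and 437 without stage 25 replicate 1 or 2. The stage 25 count was 40 and 74 without stage 24 replicate 1 or 2, and 81, 46 and 89 without stage 25 replicate 1, 2 or 3. With at least 3 reads asked of each library of the stage with reads, the dorsal counts were 112 and 9.

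The stage 24 genes were mostly of modest level, with a median of 50.1 CPM and 47 genes over 100 CPM, and 130 of 197 carried a gar identifier. Of the 197, 192 were read in at least 1 stage 27 dorsal mesoderm library and 133 in all 3. These counts and those that follow for other groups were taken at full depth. The stage 27 dorsal mesoderm libraries read 12602, 11012 and 8511 genes in all. The like share over all genes read at stages 24 and 25 was not taken, so the counts do not set these genes apart. At stage 24, 151 were read in at least 1 ventral mesoderm library and 165 in at least 1 dorsal endoderm library. At stage 25, 137 were read in at least 1 ventral mesoderm library and 137 in at least 1 dorsal endoderm library. That dorsal mesoderm gave no read at stage 25 holds for the equal depth of 512370 reads. A read is more easily found at full depth, so these counts are not on like terms with that absence. All 14 stage 25 genes were read in at least 1 stage 27 dorsal mesoderm library, 10 of them in all 3, and their median level at stage 25 was 63.8 CPM.

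Genes of the later dorsal mesoderm were also followed back. There were 6655 genes read in all 3 stage 27 dorsal mesoderm libraries with a mean of at least 10 CPM there, 4243 of them with a gar identifier. The stage 24 libraries read 64.3%, 75.2% and 47.0% of them and the stage 25 libraries 46.4%, 58.9% and 42.9%. The libraries overlapped between the stages, with the second stage 24 library highest. These genes took 92.1%, 93.6% and 92.2% of reads at stage 24 and 91.8%, 93.1% and 93.1% at stage 25. Of the 6655, 456 (6.85%) had no read at either stage, 14 were read in no stage 24 library and all 3 of stage 25, and 127 the other way round. The last 2 counts were 21 and 205 over all 10678 genes read in any of the 6 libraries, at the same depth of 746538 reads. Of all 21948 genes in the table, 11270 had no read in the 6 libraries at that depth. The later genes were chosen for their reads at stage 27, and no result about them is read from these counts.

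No gene passed the test between the stages. Of 7446 genes, 4723 with a gar identifier, 0 (0.0%) had an adjusted p under 0.05 in limma's trended test with Benjamini-Hochberg adjustment, and the smallest adjusted p was 0.913. At an unadjusted p under 0.05 there were 364, 88 higher at stage 25 and 276 lower. Where no gene differs, an unadjusted p under 0.05 is met by a share of about 0.05 of genes. The 364 of 7446 are near that share, so no difference is read from them. With limma voom on the recovered reads 47 genes were called, 9 higher and 38 lower. Of these, 46 did not overlap between stages and 32 had no read at 1 stage. Of all 7446 genes tested, 141 (1.89%) lay above and 488 (6.55%) below without overlap. A small p favours genes without overlap, so the 46 are no separate support for the calls. The share of all genes tested with no read at 1 stage was not taken. The fit of all 36 libraries called 5, of which 3 were among the 47, and the fit without the library of 3040 reads called 2. The median SE was 2.14 on the log2 scale, a 95% interval of ± 4.20, and 5 genes had an interval within ± 1. An interval of that width leaves large differences unseen.

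The differences leaned to the lower side. The median log2 difference was -0.53 over the genes tested, with 2891 positive and 4555 negative values. It was -0.22 without stage 24 replicate 2, -0.84 without stage 24 replicate 3 and -0.86 without stage 25 replicate 2. In ventral mesoderm the median was -0.04, and it moved to -0.36 and 0.21 without stage 24 ventral replicate 2 or 3 and to -0.25 and -0.33 without stage 25 ventral replicate 1 or 2. Without replicate 2 of every group the ventral median was the lower of the pair, at -0.82 against -0.59, so no order of the 2 sides is given. Quantile normalization moved the dorsal median to -0.03 and voom moved it to -1.07. In 141 genes (1.89%) every stage 25 library lay above every stage 24 library, and in 488 (6.55%) every one lay below. The counts were 200 and 390 after quantile normalization and 197 and 449 after median centring, so the lower side was the larger under each. In ventral mesoderm they were 159 (2.14%) and 209 (2.81%). The dorsal counts without stage 24 replicate 1, 2 or 3 were 241, 283 and 173 above and 890, 779 and 1279 below, and without stage 25 replicate 1, 2 or 3 they were 408, 338 and 466 above and 718, 875 and 690 below. The lower side was larger in each of these 6. Among the 1160 genes read in all 6 libraries the lean was smaller. Their median was -0.18, with 508 positive and 652 negative values, and 61 lay above and 80 below without overlap. That set was chosen by its reads at both stages, which acts on these values by itself, so the smaller lean is no separate result. The stage 25 libraries also read fewer genes on average, and the part of that in the lean was not tested.

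Against the median of -0.53 for all genes tested, the layer genes stood on either side. Of the endoderm-higher genes 289 were tested, 0 were called, and 76 had positive and 213 negative values, with a median log2 difference of -1.26. Every stage 25 library lay below every stage 24 library for 41 of them (14.2%) and above for 3 (1.04%), beside 6.55% and 1.89% of all genes tested. Of the mesoderm-higher genes 576 were tested, 0 were called, and 260 had positive and 316 negative values, with a median of -0.25. For these 39 (6.77%) lay below and 19 (3.3%) above without overlap, and the share below is near that of all genes tested.

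**Figure D4:**
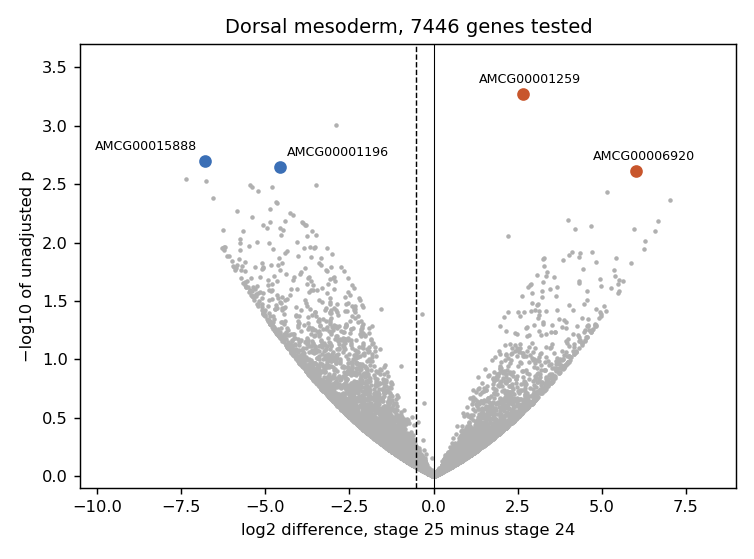
Log2 difference in dorsal mesoderm, stage 25 minus stage 24 (horizontal axis), against -log10 of the unadjusted p of limma's trended test (vertical axis) for the 7446 genes tested. The solid line marks 0 and the dashed line the median of -0.53, and the 4 labelled genes are described in the text and have an adjusted p of 0.913.

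The 4 genes described next had the smallest p in each direction among genes with a gar identifier whose libraries did not overlap, and none passed the threshold. AMCG00001259, ortholog of gar ENSLOCG00000010020, stood at 1697, 737 and 40.1 CPM at stage 24 and at 2010, 3247 and 2033 CPM at stage 25. Every stage 25 library was above every stage 24 library, although the first stage 24 library came close and the third was far below the rest. The means of 825 ± 832 and 2430 ± 708 CPM (SD, n = 3 each) give a ratio of 2.95, and limma gave a log2 difference of 2.66 (SE 0.77, 95% interval 1.15 to 4.17, adjusted p = 0.913). With the spread of this gene alone the interval was -0.01 to 5.33. Without stage 24 replicate 3 the difference was 1.08, without stage 24 replicate 1 it was 3.75, and over 30 alternatives it ran from 1.08 to 3.87 with none past the threshold. Stage 27 dorsal mesoderm stood at 1013, 1391 and 856 CPM, below all 3 stage 25 libraries. In ventral mesoderm the gene was at 3260 ± 257 CPM at stage 24 and 3743 ± 223 CPM at stage 25 (SD, n = 3 each), above the dorsal mean at both stages.

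AMCG00006920, ortholog of gar ENSLOCG00000016590, had 0 reads in all 3 stage 24 libraries and stood at 638, 165 and 14.1 CPM at stage 25. The stages did not overlap, but the stage 25 libraries spread widely around their mean of 273 ± 326 CPM (SD, n = 3). The stage 25 mean was 282-fold higher than the 0.967 CPM that 0 reads allow (3 counts over the reads of the group, counting error only). This fold leaves out the spread between libraries and is no lower bound on the difference. The limma log2 difference was 6.02 (SE 1.99, 95% interval 2.13 to 9.92, adjusted p = 0.913), while limma voom gave an adjusted p of 0.00400 and the fit of all 36 libraries 0.0450. With the spread of this gene alone the interval was 3.49 to 8.56, but groups with 0 reads throughout add no spread to it. Over 24 alternatives the log2 difference ran from 4.68 to 7.92 and the adjusted p from 0.00400 to 1, and 2 passed. With any 1 of the stage 25 libraries left out the gene did not reach the filter and was not tested. Among the mesoderm libraries tested it passed the filter only through those of stage 25 dorsal mesoderm, where it is high. The gene was also picked by these values, so the passing fits are not separate support. At stage 27 the gene was read in all 3 dorsal mesoderm libraries, at 25.5, 6.18 and 2.77 CPM. Their mean was 11.5 CPM, beside 10.9 in ventral mesoderm, 10.9 in dorsal endoderm and 10.8 in ventral endoderm at stage 27. No read was found in ventral mesoderm at stage 24 or 25. In dorsal endoderm 1 stage 24 library and no stage 25 library read it, and in ventral endoderm 2 stage 24 libraries and no stage 25 library did.

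AMCG00015888, ortholog of gar ENSLOCG00000013638, showed the opposite order. It stood at 227, 29.5 and 1209 CPM at stage 24 and had 0 reads in all 3 stage 25 libraries. The stages did not overlap, and the third stage 24 library held most of the signal. The stage 24 mean was 489 ± 632 CPM (SD, n = 3), 668-fold above the 0.731 CPM that 0 reads allow by counting error only. The spread between libraries is not in that fold, so it is no lower bound on the difference. Limma gave a log2 difference of -6.81 (SE 2.20, 95% interval -11.13 to -2.49, adjusted p = 0.913), voom an adjusted p of 4.80e-05 and the fit of all 36 libraries 0.0450. From its own spread the interval was -9.35 to -4.27, to which groups with 0 reads throughout again add no spread. Over 29 alternatives the log2 difference ran from -9.19 to -5.42 and the adjusted p from 4.80e-05 to 0.995, and 2 passed. Among the mesoderm libraries tested it passed the filter through those of stage 24 dorsal mesoderm, where it is high, and 1 stage 24 ventral library at 1.78 CPM. Because the gene was picked by these values, the passing fits are not separate support. At stage 27 the dorsal mesoderm libraries held 3.92, 24.7 and 1.38 CPM. Their mean was 10.0 CPM, beside 11.3 in ventral mesoderm, 10.8 in dorsal endoderm and 11.5 in ventral endoderm at stage 27. In ventral mesoderm 1 stage 24 library and no stage 25 library read the gene, and no dorsal endoderm library of stage 24 or 25 did. In ventral endoderm 1 stage 24 library read it at 2.84 CPM, and 2 stage 25 libraries did at 2.88 and 136 CPM.

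AMCG00001196, ortholog of gar ENSLOCG00000009762, stood at 650, 1141 and 2050 CPM at stage 24 and at 0, 319 and 191 CPM at stage 25. The stages did not overlap, and the first stage 25 library had no read. The means were 1281 ± 711 and 170 ± 161 CPM (SD, n = 3 each), a ratio of 7.54 of stage 24 to stage 25, with a limma log2 difference of -4.57 (SE 1.5, 95% interval -7.51 to -1.64, adjusted p = 0.913). The interval from the spread of this gene alone was -8.76 to -0.38. Without stage 25 replicate 1, the library with no read, the difference was -2.21. No alternative passed, the difference ran from -5.94 to -2.21, and the adjusted p ran from 0.264 to 1. Stage 27 dorsal mesoderm stood at 523, 547 and 207 CPM, between the means of stages 24 and 25. The ventral mesoderm means were 443 ± 447 CPM at stage 24 and 524 ± 127 CPM at stage 25 (SD, n = 3 each).

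**Figure D5:**
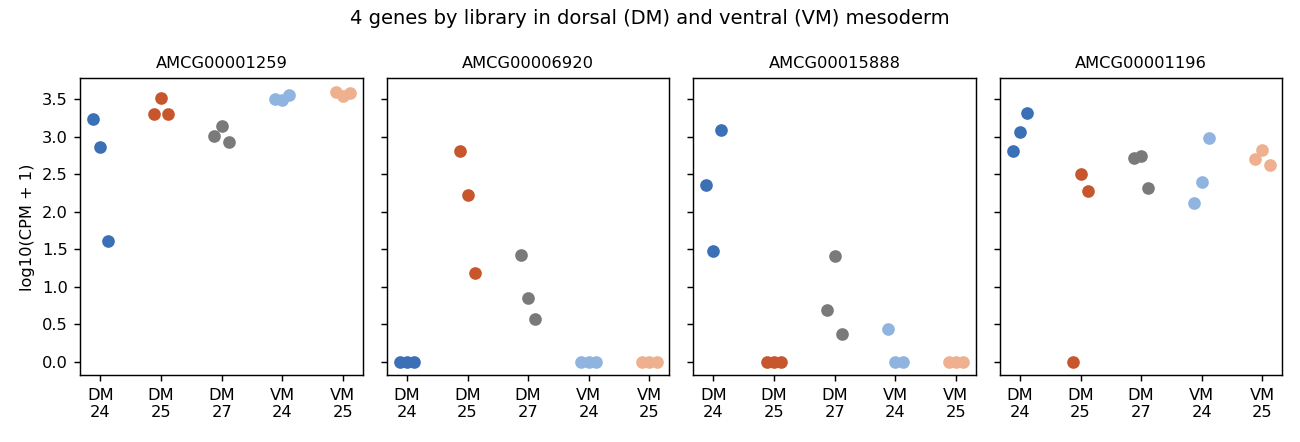
Level of the 4 genes in each library, as log10(CPM + 1), in dorsal mesoderm (DM) at stages 24, 25 and 27 and in ventral mesoderm (VM) at stages 24 and 25. Each point is a library. AMCG00006920 is at 0 in the stage 24 dorsal libraries and AMCG00015888 in those of stage 25, while AMCG00001259 and AMCG00001196 are read in both sides and stages.

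The 3 most abundant genes over the 6 libraries carry no gar identifier. AMCG00006382 stood at 105296, 184593 and 131095 CPM at stage 24 and at 108500, 139326 and 156913 CPM at stage 25. The stages overlapped and the log2 difference was -0.03 (SE 0.09), with an interval of -0.85 to 0.78 from the spread of this gene alone. Voom gave a difference of 0.17 with an adjusted p of 3.54e-90 on these overlapping libraries, and median centring gave 0.07, so no direction is given. AMCG00009032 stood at 51438, 41719 and 47794 CPM at stage 24 and at 33423, 36631 and 40759 CPM at stage 25. All 3 stage 25 libraries were below all 3 of stage 24, at 36938 ± 3678 against 46984 ± 4910 CPM (SD, n = 3 each). Its log2 difference of -0.35 (SE 0.17) had an adjusted p of 0.913 in limma and 5.02e-09 in voom, and the interval from its own spread was -1.0 to 0.31. AMCG00012108 stood at 18219, 26230 and 19776 CPM at stage 24 and 17627, 14809 and 19402 CPM at stage 25. Its stages overlapped, with a log2 difference of -0.30 (SE 0.25, limma adjusted p = 0.930) that became 0.17 after quantile normalization. All 3 had lower means in stage 27 dorsal mesoderm, at of 55164, 24438 and 10005 CPM in that order.

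The stage difference was then compared with that of ventral mesoderm in the same fit. In ventral mesoderm itself 1 gene (0.0134%) was called by limma, higher at stage 25, with 326 at an unadjusted p under 0.05 and 38 by voom. The test of the dorsal difference minus the ventral one called 1 gene (0.0134%), with 307 at an unadjusted p under 0.05 and 6 by voom. The 326 and the 307 are each less than a share of 0.05 of the 7446 genes tested. Both calls are AMCG00006382. Its ventral levels were 100836, 57527 and 127777 CPM at stage 24 and 105853, 183222 and 138810 CPM at stage 25, and the stages overlapped. The ventral log2 difference was 0.62 (SE 0.09, limma adjusted p = 1.25e-08), and the dorsal minus ventral difference was -0.65 (SE 0.12, limma adjusted p = 0.00102). With the gene's own spread the interval was -0.19 to 1.43 for the ventral difference and -1.81 to 0.50 for the dorsal minus ventral one. The dorsal minus ventral call was lost without stage 24 or stage 25 ventral replicate 2, without stage 24 dorsal replicate 2 and without stage 25 dorsal replicate 1, each with 0 calls. The ventral call was lost without either ventral replicate 2. The dorsal minus ventral call kept its direction and passed in 15 of 29 alternatives, and the adjusted p ran from 4.42e-10 to 1. Voom passed with the opposite direction (0.05 on the log2 scale, adjusted p = 0.0400).

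None of the 4 genes with gar identifiers differed from ventral mesoderm past the threshold. AMCG00001259 had a dorsal minus ventral difference of 2.46 on the log2 scale (SE 1.09, limma adjusted p = 0.997). For AMCG00001196 it was -5.29 (SE 2.12, limma adjusted p = 0.997). For AMCG00006920 it was 6.02 (SE 2.81) and for AMCG00015888 -6.48 (SE 3.12), each with the same limma adjusted p. The voom adjusted p-values of the 4, in the order named here, were 0.926, 0.790, 0.0906 and 0.185.

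Against dorsal endoderm no gene passed. Of 7741 genes tested over the 12 dorsal libraries, 0 (0.0%) were called by limma, with a smallest adjusted p of 0.997. An unadjusted p under 0.05 was found for 238, less than a share of 0.05 of those tested, and voom called 14. The smallest p was that of AMCG00005961, which carries no gar identifier. In dorsal mesoderm it stood at 0.663, 81.7 and 2203 CPM at stage 24 and at 9.45, 0 and 0 CPM at stage 25. The stages overlapped there and 1 library held nearly all reads. In dorsal endoderm it stood at 0, 8.10 and 0 CPM at stage 24 and at 296, 610 and 122 CPM at stage 25, with no overlap. Ventral endoderm, which is not in this test, stood at 857, 29.8 and 0 CPM at stage 24 and at 0, 11.2 and 0 CPM at stage 25. The mesoderm minus endoderm difference was -10.98 on the log2 scale (SE 3.44, limma adjusted p = 0.997, voom adjusted p = 0.0143). The gene was picked for its p in this comparison, so the voom value is not separate support. AMCG00006920 and AMCG00015888 gave 6.66 (SE 2.99) and -6.81 (SE 3.03) in the same comparison, each with a voom adjusted p of 0.0170 and a limma adjusted p of 0.997. AMCG00001259 and AMCG00001196 gave 1.58 and -3.05, with voom adjusted p-values of 0.898 and 0.807. All 4 were chosen by their dorsal mesoderm values, so these p-values are not separate support. AMCG00015888 had no read in dorsal endoderm at stage 24 or 25, and its difference here is that of dorsal mesoderm alone. In this test it passed the filter only through the 3 stage 24 dorsal mesoderm libraries, where it is high. With any 1 of these left out it was not tested.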

How the data were processed

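The authors deposited 1 table of log2 CPM values. Trimmomatic 0.38 for trimming, the aligner STAR 2.6, edgeR and R 3.6.0 are named in the submitters' processing notes; the genome build and counting tool are not given in the sources used here. The values carry a prior count of 2, and library totals and whole reads were recovered from them: 100% of recovered values under 200 reads were whole within 0.02. No pair of libraries was identical.

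The main test was limma 3.58.1 with a variance trend, in R 4.3.3, on the deposited log2 values of the 12 mesoderm libraries of stages 24 and 25 in 4 groups, with 8 residual degrees of freedom; the spread was taken wholly from its trend over abundance. Stage 27 was kept out because it reads far more genes. A gene was tested where 3 or more libraries exceeded 1 CPM, with Benjamini-Hochberg adjustment and a threshold of 0.05. Intervals from a gene's own spread use its residual variance over the 8 degrees of freedom. Limma voom on the recovered reads was an alternative, since the deposited unit is not counts. Libraries read 512370 to 1623825 reads in mesoderm; because cDNA was amplified, floors (3 counts over the reads of the group) cover counting error only.

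The genes named are, in each direction, the 2 with a gar identifier, the smallest p and no overlap between stages (since none was called), the 3 most abundant, and the gene with the smallest p in each interaction. The comparison and lists were chosen with earlier results of these data known. Replicate numbers were not used to pair libraries in the main test. Correlations of deviations from the group means between same-numbered dorsal mesoderm libraries of stages 24 and 25 were 0.0051, 0.0093 and -0.0019. Between dorsal and ventral mesoderm they were 0.011, -7e-04 and -0.023 within stage 24, and 0.0088, -0.0056 and 0.0078 within stage 25. No such correlation was taken between dorsal mesoderm and dorsal endoderm. Alternatives were other filters, pseudocounts, scalings and variance models, other sets of libraries, the replicate block, and leaving out each library. Exact permutation tests used scipy 1.17.1.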

Additional observations from a re-analysis of the deposited data

Results flagged for a closer look

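The stage difference of AMCG00006382, the most abundant gene, was -0.65 on the log2 scale in dorsal minus ventral mesoderm (limma adjusted p = 0.00102), a difference between the 2 sides under the same stage contrast. The dorsal log2 difference was -0.03 and the ventral 0.62, and libraries of the stages overlapped on both sides. The interval from the spread of this gene alone was -1.81 to 0.50 for the dorsal minus ventral difference and -0.19 to 1.43 for the ventral one. Without the variance trend the adjusted p was 0.999.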

How the results depend on the processing

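The dorsal mesoderm count of 0 calls held in 27 of 30 alternatives; limma voom gave 47, all 36 libraries 5 and the fit without the library with the fewest reads 2. Leaving out libraries gave 0 to 0 calls, with a smallest adjusted p of 0.0675 to 0.987. The ventral count of 1 became 38 with voom and 0 with no filter, quantile normalization, no variance trend, all 36 libraries and without the library with the fewest reads, and 0 to 1 when libraries were left out. The dorsal minus ventral count of 1 became 6 with voom and 0 with these same settings, with median centring and with the 24 libraries of stages 24 and 25, and 0 to 1 when libraries were left out. The mesoderm minus endoderm count of 0 became 14 with voom. With the replicate block, fixed or random, there were 0 dorsal, 1 ventral and 1 dorsal minus ventral calls, as without it. The mesoderm minus endoderm count also stayed at 0 with either block. Genes read at stage 24 only numbered 112 and at stage 25 only 9 with at least 3 reads per library, and 291 to 686 and 19 to 89 with a library left out, where the rule by construction asks fewer libraries. Genes without overlap numbered 173 to 466 above and 690 to 1279 below with a library left out, for the same reason. AMCG00006382 changed direction in dorsal mesoderm with median centring (0.07) and voom (0.17), and ran from -0.22 to 0.18 when libraries were left out, with 0.15 without replicate 2 throughout. Its dorsal minus ventral difference turned to 0.053 with voom and 0.057 without replicate 2 throughout. AMCG00012108 turned to 0.17 with quantile normalization. The causes were not tested. The ratio of genes read kept its direction with any library left out (0.638 to 0.836). At this depth and spread, log2 differences under about 4.2 are within the median interval of a gene. Alternatives for genes read at 1 stage and for genes without overlap were chosen after seeing the data.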

Other observations

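AMCG00017280 (gar ENSLOCG00000014440), singled out after its values were seen, took 34162 CPM in stage 24 dorsal mesoderm replicate 2, against 1.99 and 7.08 CPM in the other stage 24 libraries, 0, 0 and 2.49 CPM at stage 25 and 10.8, 29.1 and 6.92 CPM in stage 27 dorsal mesoderm. Its log2 difference between stages 25 and 24 was -5.43 (SE 2.34, limma adjusted p = 0.913), and a single library set it.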
